A study of Mus musculus with 15 samples.

Results

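The genes described here encode the proteins of the cytosolic ribosome, 82 of the 54495 genes in a table of RNA levels from mouse embryonic fibroblasts. They were chosen by name, as protein-coding genes called Rpl, Rplp, Rps or Rpsa, which gave 50 proteins of the large subunit (Rpl and Rplp) and 32 of the small subunit (Rps and Rpsa). Of 91 names that fit, 7 kinases named Rps6k and the 2 ribosomal protein-like genes Rpl7l1 and Rpl22l1 were left out. The fibroblasts were taken from embryos (e13.5) and grown in DMEM with 10% serum at 37 °C, 5% CO2 and 3% O2. All embryos, controls included, lacked mTR, the RNA component of telomerase, and Wrn, the helicase lost in Werner syndrome (mTR-/-, Wrn-/-). TM fibroblasts also carried p53N236S on both alleles, and DM fibroblasts had wild-type p53. G1, G3 and G5 count the generations bred without telomerase, over which telomeres shorten. There were 2 libraries of G1TM, 2 of G1DM, 3 of G3TM, 2 of G3DM, 3 of G5TM and 3 of G5DM, 15 in all, each of polyA RNA. The study asked how the p53 change alters ageing phenotypes of these mice. Its wild-type and p53-mutant control fibroblasts were not analysed here. The labels do not say whether libraries of a group came from separate embryos, so p-values measure only the spread between these libraries.

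A ribosome joins a small subunit, which reads the mRNA, to a large subunit, which forms the peptide bond. Their proteins are needed in fixed proportions, and in mammals many of their mRNAs begin with a pyrimidine tract (the TOP motif) through which mTOR controls translation. Ribosomal proteins are also tied to p53: when assembly of subunits is disturbed, free Rpl5 and Rpl11 with 5S RNA bind Mdm2, the ubiquitin ligase that degrades p53.

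Levels are in FPKM, read fragments divided by gene length and by library size, and the recovered read totals were 17448588 to 29571111 per library. G3TM and G5TM, with 6 libraries together, differed from the other 9 libraries in more than the genes of the ribosome. Mitochondrial 16S ribosomal RNA (mt-Rnr2) reached 44.7 to 73.6 FPKM in the 6 and 1.48 to 3.76 FPKM in the 9, and the mitochondrial mRNA mt-Co1 lay at 839 to 1692 FPKM in the 6 and 3873 to 4916 FPKM in the 9. TM against DM in G3 and in G5, and G5 against G1 in TM, all set these 6 against some of the 9, so genotype or generation and this division cannot be told apart there. TM against DM in G1 and the DM generations lie within the 9, and G5 against G3 in TM lies within the 6. Xist, which female cells transcribe, was listed at 0 in the 3 G3TM libraries, against 3.04 and 3.36 FPKM in G3DM, so in G3 the sex of the embryos cannot be told apart from genotype either. Within other groups Xist differed between libraries, with 0.00475 and 28.6 FPKM in G1DM and 0, 2.45 and 3.61 FPKM in G5TM. In G5DM it was 4.88, 0.018 and 0.0097 FPKM, the first being replicate 1. Both G1TM libraries had Xist (26.9 and 18.1 FPKM). The part of sex in the results below was not tested. Fibroblast markers were present in every library (9 of 9 reached 1 FPKM, summed level 2663 to 4719 FPKM), and the erythroid markers summed to at most 0.49 FPKM. The neural markers Tubb3, Map2 and Sox2 summed to 82.3 to 243 FPKM in G3TM and 79.0 to 113 FPKM in G5TM, against 13.7 to 41.6 FPKM over the other 4 groups, with 2 of 3 markers reaching 1 FPKM in G3TM, G5TM and G3DM, 1 of 3 elsewhere, and none at 0 in every library of a group. The epithelial markers summed to 22.1 to 71.7 FPKM in G3TM and 19.1 to 49.6 FPKM in G5TM, against 3.69 to 46.8 FPKM in the other groups (1 or 2 of 4 reached 1 FPKM, none at 0 throughout a group). The summed macrophage markers were 2.93 to 121 FPKM in G3TM and 8.66 to 30.8 FPKM in G5TM, against 2.94 to 15.8 FPKM elsewhere (1 to 5 of 6 reached 1 FPKM in a group, none at 0 throughout a group). Within G5 the epithelial sums did not overlap, since those of G5DM were 3.69 to 5.21 FPKM, and within G1 the neural sums did not, with 28.9 to 41.6 FPKM in G1TM and 18.8 to 25.4 FPKM in G1DM. The endothelial markers were lower in TM than in DM without overlap in each generation. Their sums were 1.29 to 1.37 FPKM in G1TM, against 2.22 to 2.47 FPKM in G1DM, 1.35 to 1.47 FPKM in G3TM, against 4.34 to 4.37 FPKM in G3DM, and 0.699 to 1.67 FPKM in G5TM, against 2.87 to 3.5 FPKM in G5DM (0 of 4 reached 1 FPKM in the TM groups and 2 of 4 in the DM groups, none at 0 throughout a group). The skeletal muscle markers (29.2 to 339 FPKM over all libraries) overlapped between TM and DM in each generation. The part of these marker differences in the results below was not tested.

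The sequences around the transcription start describe these genes outside the measured levels. Promoters of 62 of the 82 genes matched RefSeq (GRCm38.p6), and a stretch of 75 bases, 45 before the start and 30 from it, is given on the gene strand for the 4 genes with a sequence among those with the largest differences, for Rpl11, Rpl5 and Rps27l, and for Rps26 and Rpl15, which did not pass the test. Capitals mark CTTTC, a short pyrimidine run such as a TOP tract can hold, on the gene strand. They also mark CCGGAAG, a motif that ETS factors such as GABP bind, on either strand (read CTTCCGG when reversed). Other pyrimidine runs, as at the end of the Rpl11 stretch, are not marked, so a stretch without CTTTC may still hold a TOP tract. Some marked CTTTC, as in Rpl5, lie before the start.
Rpl12, chr2:32961667-32961741, plus strand: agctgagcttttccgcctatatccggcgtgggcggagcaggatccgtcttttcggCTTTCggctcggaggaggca
Rps27, chr3:90213619-90213693, minus strand: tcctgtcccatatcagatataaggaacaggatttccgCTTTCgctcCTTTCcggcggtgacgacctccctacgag
Rpl39, chrX:37085193-37085267, minus strand: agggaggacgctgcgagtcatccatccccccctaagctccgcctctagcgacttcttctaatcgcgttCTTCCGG
Rps21, chr2:180257334-180257408, plus strand: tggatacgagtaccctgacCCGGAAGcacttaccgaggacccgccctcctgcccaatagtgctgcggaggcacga
Rpl11, chr4:136053364-136053438, minus strand: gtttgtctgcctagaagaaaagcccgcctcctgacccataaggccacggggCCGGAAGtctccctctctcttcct
Rpl5, chr5:107900483-107900557, plus strand: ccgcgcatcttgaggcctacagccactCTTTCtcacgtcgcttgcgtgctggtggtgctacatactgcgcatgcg
Rps27l, chr9:66946041-66946115, plus strand: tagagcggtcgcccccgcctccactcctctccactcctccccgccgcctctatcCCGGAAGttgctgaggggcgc
Rps26, chr10:128626477-128626551, minus strand: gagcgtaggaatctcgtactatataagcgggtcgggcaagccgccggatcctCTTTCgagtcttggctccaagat
Rpl15, chr14:18270957-18271031, minus strand: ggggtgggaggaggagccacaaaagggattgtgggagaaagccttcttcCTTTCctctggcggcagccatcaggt

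CTTTC stood on the gene strand between 20 bases before and 50 bases after the start in 30 of the 62 ribosomal protein promoters (48.4%) and in 2393 of all 27025 promoters of the same length (8.85%). The share was 22 of 38 for the large subunit (57.9%) and 8 of 24 for the small subunit (33.3%). Over the whole window of 300 bases, CTTTC on the gene strand was present in 64.5% of the ribosomal protein promoters and 34.5% of all promoters, and on either strand in 82.3% and 57.1%. CCGGAAG on either strand of the window was found in 25 of 62 (40.3%), against 9.12% of all promoters. The motifs share no more than single letters at an overlap and were counted separately. Among genes with higher RNA in G5TM than in G5DM (below), 25 of 51 had CTTTC near the start (49.0%) and 22 of 51 had CCGGAAG (43.1%). Among those that did not pass the test there, the counts were 5 of 9 (55.6%) and 3 of 9 (33.3%). These matches describe letters in a window and not binding.

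Ribosomal protein mRNAs took a larger part of the RNA in late-generation TM fibroblasts than in any other group. Their share of the summed FPKM was 6.05 and 6.66% in the libraries of G1TM and 6.52 and 5.60% in G1DM. It was 12.0, 15.2 and 13.9% in G3TM, against 7.23 and 6.45% in G3DM, and 16.2, 13.4 and 13.4% in G5TM, against 8.43, 5.24 and 4.93% in G5DM. All 6 libraries of G3TM and G5TM lay above all 9 others, whose highest value was G5DM replicate 1. Counted as recovered reads, not weighted by length, the share was 5.77% to 9.32% in the 6 and 2.07% to 4.06% in the 9. In these bulk samples, fewer cells of a type and less RNA per cell cannot be told apart.

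Libraries of a group also differed among themselves. G5DM replicate 1 had the highest level of the 9 for 67 of the 80 ribosomal protein genes that passed the filter (below), and G5DM replicate 3 had the lowest for 64. G5DM replicate 1 also had fewer genes above 0 (21138) than G5DM replicates 2 and 3 (24874 and 25789), and more Xist (above). The part of either in its ribosomal protein levels was not tested. Among the 6, G5TM replicate 1 was highest for 53 and G3TM replicate 1 was lowest for 59. The median ribosomal protein gene stood at 630.4, 402 and 484 FPKM in the 3 G5TM libraries and at 194, 99.8 and 88.9 FPKM in the 3 G5DM libraries.

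**Figure D1:**
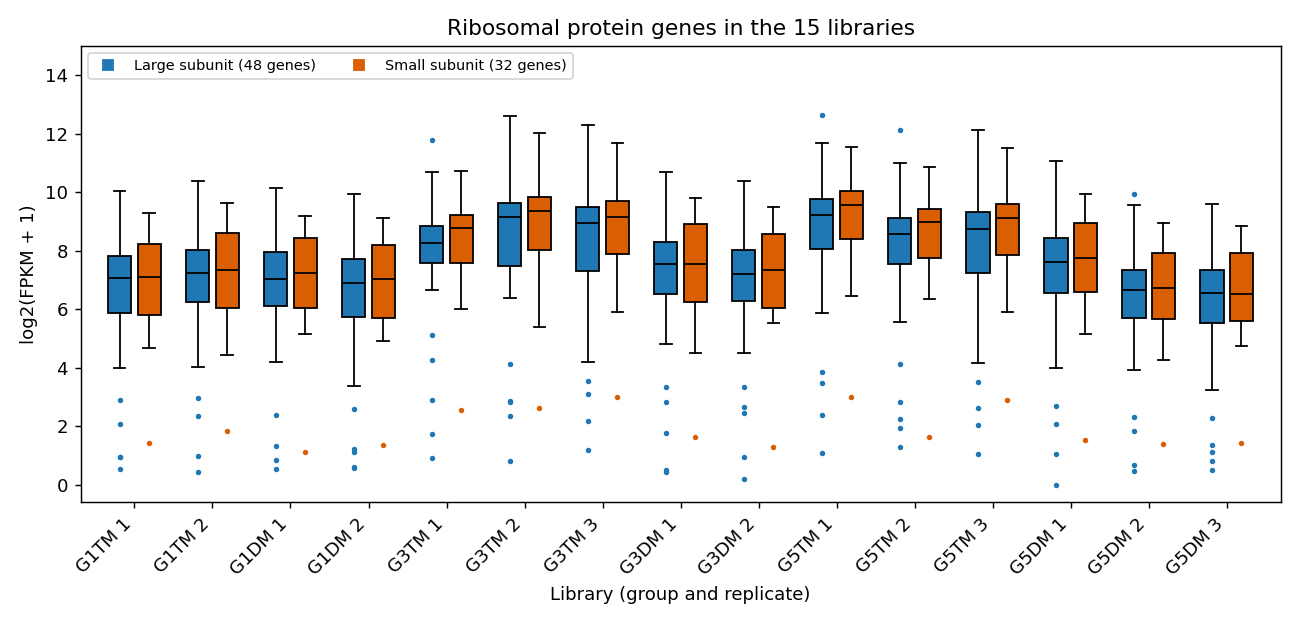
Boxes show log2(FPKM + 1) of the 48 large and 32 small subunit genes that passed the filter in each of the 15 libraries (line: median; box: middle quartiles; whiskers: 1.5 times the box; points: genes beyond). The medians of both subunits are higher in the 6 libraries of G3TM and G5TM than in the 9 others. A few genes are low in all libraries, among them the small subunit gene Rps10.

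The genes differed widely in level within a library. Rplp0, the base of the ribosomal stalk, was the highest in each of the 9 libraries (778 to 2121 FPKM), while Rplp1, a stalk tip protein, was the highest in each of the 6 (3537 to 6443 FPKM, against 523 to 1967 FPKM in the 9). The 5 highest genes of a library held 23.4% to 29.9% of the summed FPKM of all 82. Between 3 and 7 of the 80 genes were below 10 FPKM in a library. Some of these encode core proteins of every ribosome: Rpl24 lay at 2.33 to 4.22 FPKM in the 6 and 0 to 0.787 FPKM in the 9, and Rps10 at 2.10 to 7.09 FPKM in the 6 and 1.16 to 2.59 FPKM in the 9. In the GENCODE vM21 annotation, exons of Rpl24 overlapped those of other genes on either strand over 47.0% of their length, and those of Rps10 over 28.7%. How shared reads were counted is not given in the sources used here, so both levels are uncertain, and the part of overlap in them was not tested. Rpl10l, a testis paralog, was listed at 0 in all libraries, and Rpl3l, a muscle paralog, reached at most 0.0843 FPKM. Neither passed the filter of at least 1 FPKM in 2 of the 15 libraries, which left 48 large and 32 small subunit genes among 13562 genes tested. Rpl24 passed it only through the libraries of G3TM and G5TM. Where Rpl24 is counted as higher there in the results below, the filter favoured that outcome, and its count is no support for a rise.

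In G1, no ribosomal protein gene passed the test between TM and DM fibroblasts. With limma on log2(FPKM + 1), 0 of 80 passed an adjusted p of 0.05, where 1.17% of all genes tested did (0.361% higher, 0.811% lower), and the same was found with voom on recovered reads. At an unadjusted p under 0.05 there were 2, Rpl39l and Rps27l. The median log2 difference (TM minus DM) was 0.13 for the large subunit and 0.08 for the small subunit, against 0.02 over all genes tested. Libraries of the groups did not overlap for 16 genes higher in TM and 5 genes lower, shares to be set beside 26.4% and 23.0% of all genes tested. Rps27l, a paralog of Rps27 that p53 is known to induce, had 58.6 and 66.1 FPKM in G1TM, against 98.1 and 108 FPKM in G1DM. Both TM libraries were lower than both DM libraries, with a log2 difference of -0.72 ± 0.33 (SE) and an adjusted p of 0.38 in limma. Of the p53 targets outside the ribosome, Cdkn1a, the cell cycle inhibitor p21, fell, with a log2 difference of -4.25 ± 0.54 (limma, adjusted p = 0.002), while that of Mdm2 was -1.69 ± 0.45 and did not pass (adjusted p = 0.087).

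In G3, 51 of 80 ribosomal protein genes were higher in TM than in DM fibroblasts and none was lower. Among all genes tested, 32.0% changed in G3, 18.0% being higher and 13.9% lower. The 51 were 30 of 48 large subunit genes, with a median log2 difference over the 48 of 1.19, and 21 of 32 small subunit genes, with a median of 1.38. The median over all genes tested was 0.01. Libraries of the groups did not overlap for 63 genes higher in TM, beside 31.6% of all genes tested, and for 1 lower (Rpl7), beside 28.2%. Without G3DM replicate 2 the number was 23, and over the 15 fits that each left out 1 library it ran from 23 to 59.

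In G5, 69 of 80 were higher in TM than in DM fibroblasts and none was lower. Among all genes tested, 58.7% changed in G5, 30.3% being higher and 28.4% lower. These were 42 of 48 for the large subunit (median log2 difference 1.56) and 27 of 32 for the small subunit (1.86), beside a median of 0.02 over all genes tested. Libraries did not overlap for 65 genes higher in TM, beside 29.6% of all genes tested, and for 0 lower, beside 28.3%. A difference above 1 log2 unit was reached by 39 large and 26 small subunit genes, and one above 2 log2 units by 19 and 13. All 51 genes called in G3 were among the 69, 18 more were called in G5, and 11 were called in neither. The 69 include Rpl24, which passed the filter only through G3TM and G5TM. The generations do not share libraries, but both comparisons set the 6 libraries against some of the 9. Without any grouping by generation, the lowest of the 6 libraries lay above the highest of the 9 for 35 of the 50 large and 23 of the 32 small subunit genes, beside 17.1% of all genes tested. For no ribosomal protein gene were the 6 all lower, beside 9.63% of all genes tested. When FPKM were rescaled to an equal sum per library (TPM), the median of all genes tested moved by -0.27 in G3 and -0.56 in G5, and the medians were 0.81 for the large and 1.03 for the small subunit in G3 and 1.01 and 1.29 in G5. Relative to the median of all genes under that scaling, they were 1.06 and 1.29 in G3 and 1.55 and 1.83 in G5. Under quantile scaling they were 0.74 and 0.87 in G3 and 0.98 and 1.11 in G5, all still positive.

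**Figure D2:**
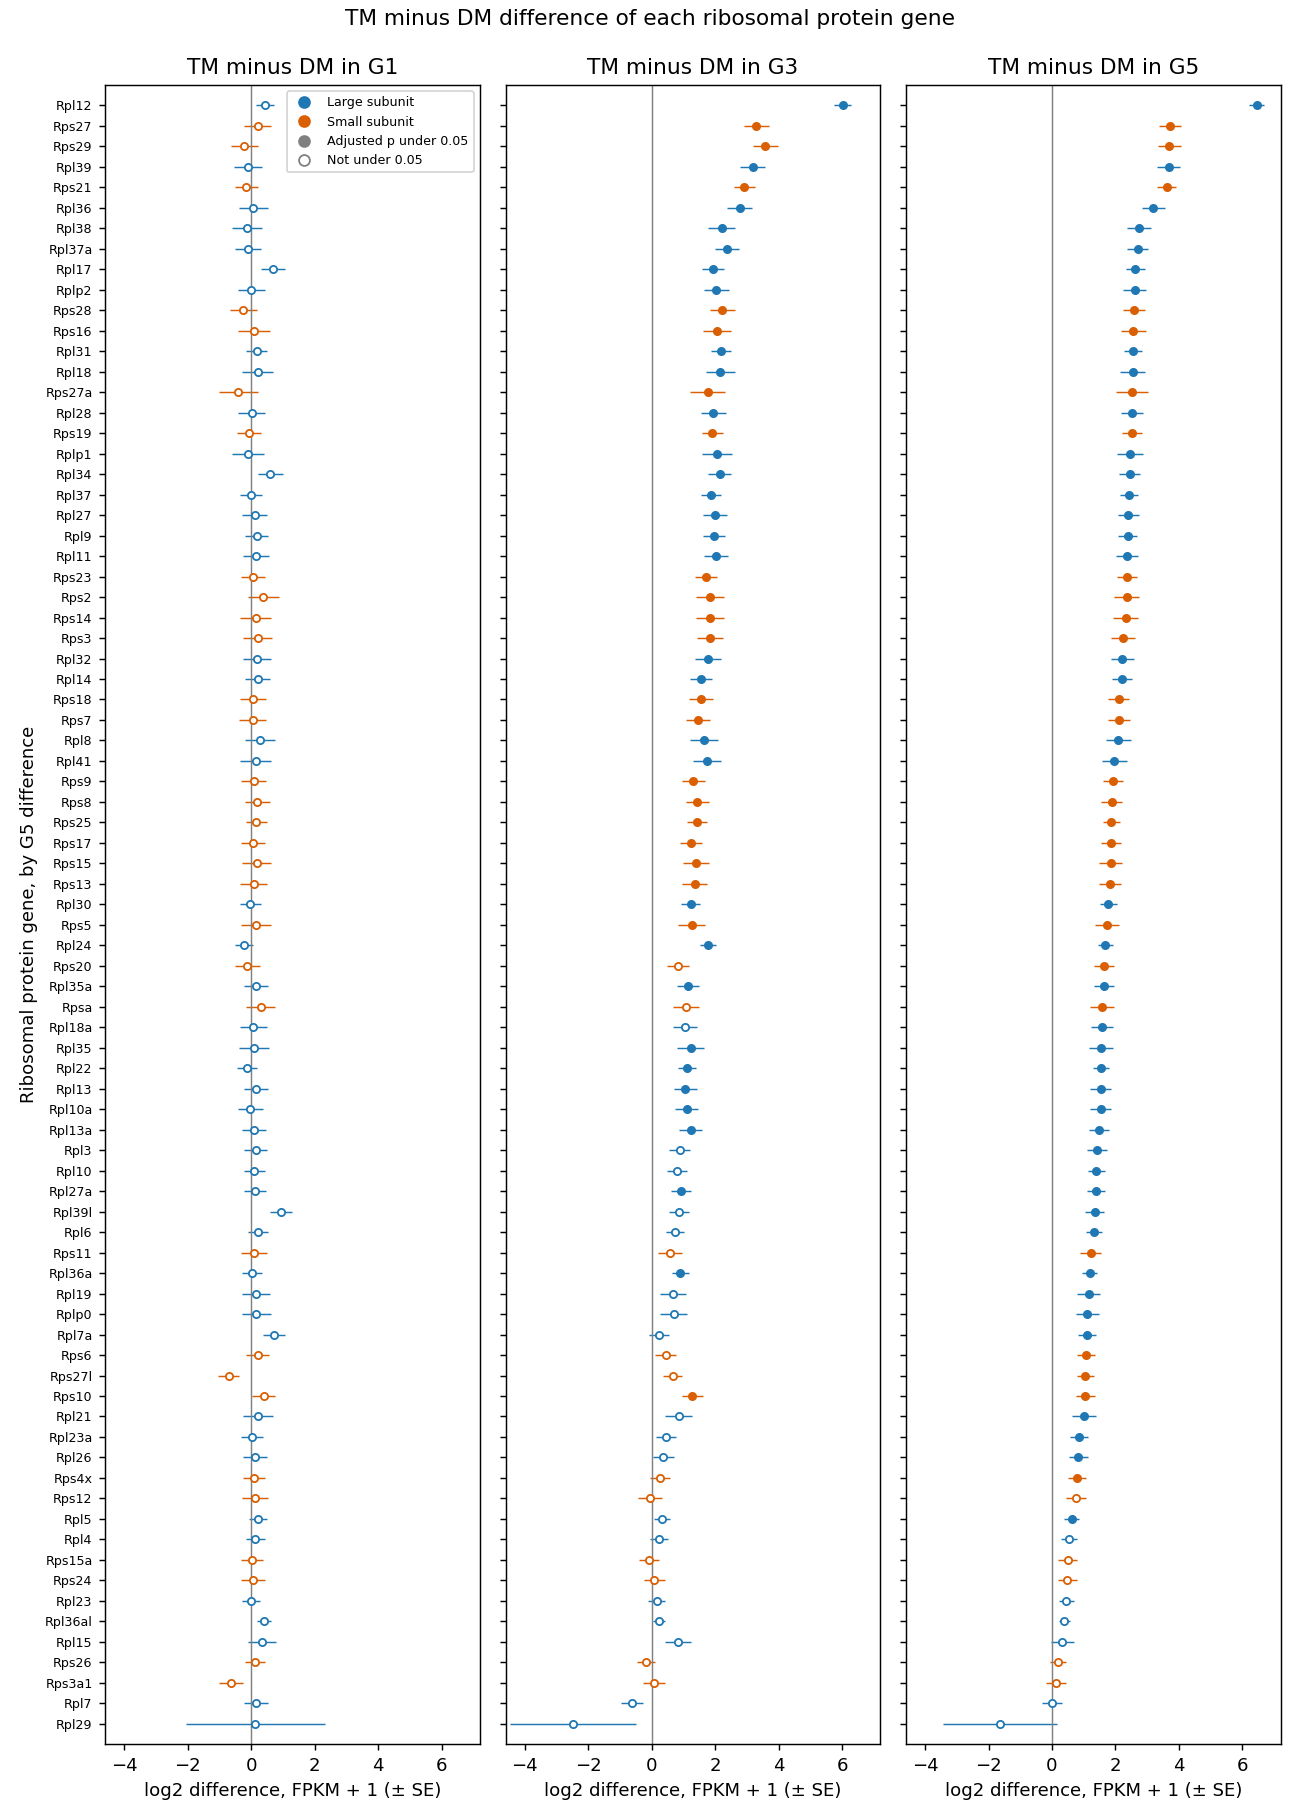
Each point is the log2 difference (TM minus DM, ± SE) of 1 ribosomal protein gene in G1, G3 and G5, with genes ordered by the G5 difference; filled points passed an adjusted p of 0.05 in limma. No point is filled in G1, 51 are filled in G3 and 69 in G5, all to the right of 0.

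A few genes moved far more than the rest. Rpl12 (chromosome 2, 32961559-32965345), whose protein anchors the stalk that recruits translation factors, had 300.4, 569 and 483 FPKM in G3TM, against 6.19 and 5.25 FPKM in G3DM. It had 609.7, 382 and 441 FPKM in G5TM, against 5.41, 3.98 and 3.84 FPKM in G5DM. The G1 libraries were as low, with 6.40 and 6.77 FPKM in G1TM and 4.24 and 5.04 FPKM in G1DM, so that no value fell between 6.77 and 300.4 FPKM. The log2 differences were 6.03 ± 0.27 in G3 and 6.45 ± 0.24 in G5 (limma, adjusted p = 1.8e-08 and 1.7e-09). Its exons overlapped a small nucleolar RNA gene and Lrsam1 over 5.17% of their length, and the table held 2 pseudogenes of it. The 3.84 to 6.77 FPKM of Rpl12 in the 9 libraries are very low for a core protein, beside 778 to 2121 FPKM for Rplp0. How shared reads were counted is not given, so these low levels and the size of the Rpl12 difference are uncertain. The cause was not tested.

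The next largest differences belonged to genes of very short proteins. Rps29 (chromosome 12, 69157722-69159186) and Rps27 (chromosome 3, 90212522-90213651), zinc-binding proteins of the small subunit, and Rpl39 (chromosome X, 37082520-37085402), which lines the peptide exit tunnel, moved alike. Rps29 stood at 489.5, 891 and 572 FPKM in G3TM, against 54.6 and 49.1 FPKM in G3DM, and at 866, 519 and 579 FPKM in G5TM, against 92.3, 38.4 and 31.5 FPKM in G5DM. Its level was 34.7 and 39.5 FPKM in G1TM and 44.6 and 41.9 FPKM in G1DM. The libraries of TM and DM were far apart in G3 and G5 for each of the 3 genes. Rps27 had 1052, 777 and 875 FPKM in G5TM, against 121, 51.8 and 48.5 FPKM in G5DM, and 490.1, 912 and 930.2 FPKM in G3TM, against 84.4 and 67.0 FPKM in G3DM. In G1 it had 56.0 and 76.0 FPKM in TM and 68.2 and 46.8 FPKM in DM. Rpl39 had 628, 459.9 and 601 FPKM in G5TM, against 78.7, 33.8 and 29.2 FPKM in G5DM. It had 353, 746 and 647 FPKM in G3TM, against 65.3 and 54.9 FPKM in G3DM, and 34.6 and 41.9 FPKM in G1TM, against 47.6 and 35.5 FPKM in G1DM. The G5 log2 differences were 3.71 ± 0.35 for Rps27, 3.70 ± 0.35 for Rps29 and 3.67 ± 0.35 for Rpl39, with adjusted p of 9.3e-06, 9.6e-06 and 9.9e-06 in limma. Rps21 (chromosome 2, 180257377-180258445), also of the small subunit, had 1245, 942 and 767 FPKM in G5TM, against 131, 66.0 and 55.2 FPKM in G5DM, and 59.1 and 70.4 FPKM in G1TM, against 74.8 and 69.2 FPKM in G1DM. Its G3 values were 635, 927 and 832 FPKM in TM and 111 and 95.8 FPKM in DM, without overlap. Its log2 difference was 3.61 ± 0.30 in G5 (limma, adjusted p = 3.7e-06). In G5DM the replicate with the highest level was replicate 1 for all 5 of these genes.

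The counts by role below are to be read beside those over all ribosomal protein genes, 51 of 80 higher in G3 and 69 of 80 in G5, and beside 18.0% and 30.3% of all genes tested. They are too small to set a role apart from the other ribosomal protein genes, and no such difference was tested. Of the 4 stalk genes of the large subunit, 3 rose in G3 and 4 in G5. Rplp0 had a log2 difference of 0.69 ± 0.41 in G3, which did not pass (limma, adjusted p = 0.22), and 1.11 ± 0.37 in G5 (adjusted p = 0.02). Its partners at the stalk tip rose more, Rplp1 by 2.46 and Rplp2 by 2.60 log2 units in G5. Of the 8 genes at the rim of the peptide exit tunnel, 5 rose in G3 and 8 in G5, beside 30 and 42 of all 48 large subunit genes. The G5 log2 difference there ran from 0.83 ± 0.31 for Rpl26 to 3.67 ± 0.35 for Rpl39, with 2.56 ± 0.28 for Rpl31 and 1.53 ± 0.26 for Rpl22. Levels of the rim genes, which are per length, ran in G5TM from 169, 118 and 109 FPKM for Rpl22 to 1474, 862 and 1112 FPKM for Rpl19.

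The 2 proteins of the 5S particle, Rpl5 (chromosome 5, 107900502-107909005) and Rpl11 (chromosome 4, 136028265-136053428), moved by unequal amounts. Rpl11, also the large subunit gene nearest the median level, had 618, 361 and 509 FPKM in G5TM, against 157, 76.2 and 68.3 FPKM in G5DM. It had 316, 661 and 562 FPKM in G3TM, against 129 and 109 FPKM in G3DM, and 89.4 and 107 FPKM in G1TM, against 90.1 and 87.8 FPKM in G1DM. Libraries of TM and DM did not overlap in G3 or G5. The log2 differences were 2.03 ± 0.38 and 2.36 ± 0.34 (limma, adjusted p = 0.0018 in G3 and 0.00014 in G5). Rpl5 had 242, 159.8 and 143 FPKM in G5TM, against 151, 101 and 98.0 FPKM in G5DM, and its libraries overlapped. It had 175, 168 and 137 FPKM in G3TM, against 137 and 118 FPKM in G3DM, and 144 and 155 FPKM in G1TM, against 137 and 124 FPKM in G1DM. Its log2 difference of 0.62 ± 0.23 in G5 passed (limma, adjusted p = 0.034), while 0.32 ± 0.26 in G3 did not (adjusted p = 0.37). Under TPM or quantile scaling the G3 value, and under quantile scaling the G5 value, turned slightly negative. The G5 call was lost in 8 of 24 alternatives. These included the fits without G5DM replicate 2 (log2 difference 0.54), G5DM replicate 3 (log2 difference 0.51) or G5TM replicate 1 (log2 difference 0.40). It was also lost under quantile scaling, under TPM (log2 difference 0.047) and with length trends removed (log2 difference 0.47). The others were no filter (limma, adjusted p = 0.064) and only the groups compared in the fit (limma, adjusted p = 0.12). Exons of Rpl5 overlapped those of Fam69a and a small nucleolar RNA gene over 26.7% of their length. The difference between the 2 genes was not tested.

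In the small subunit, the 3 proteins at the mRNA entry, Rps2, Rps3 and Rps9, rose in G3 and in G5. Rps9, the small subunit gene nearest the median level, had 862, 528 and 635 FPKM in G5TM, against 300.4, 141 and 125 FPKM in G5DM, and 448, 727 and 691 FPKM in G3TM, against 268 and 222 FPKM in G3DM. The G1 levels were 155 and 193 FPKM in TM and 181 and 151 FPKM in DM. No library of TM overlapped DM in G3 or G5, and the log2 differences were 1.32 ± 0.36 and 1.92 ± 0.32 (limma, adjusted p = 0.015 and 0.0004). Of 5 proteins at the mRNA exit, 3 rose in G3 and 4 in G5, shares at or below those of all small subunit genes (21 and 27 of 32). Rps28 rose by 2.57 and Rps14 by 2.33 log2 units in G5. The one that did not pass was Rps26, with 766, 513 and 482 FPKM in G5TM, against 691, 463 and 403 FPKM in G5DM, and 460.2, 624 and 554 FPKM in G3TM, against 666 and 569 FPKM in G3DM. Its G1 values were 528 and 626 FPKM in TM and 539 and 519 FPKM in DM. The libraries overlapped in each generation, with log2 differences of -0.18 ± 0.29 in G3 and 0.18 ± 0.26 in G5 (limma, adjusted p = 0.67 and 0.55). The sign of the G5 value turned under TPM and quantile scaling and after removal of length trends, and Rps26 was called lower under quantile scaling in both generations and under TPM in G3.

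Genes mutated in Diamond-Blackfan anaemia, a failure of red cell production with p53 activation, rose in 6 of 9 cases in G3 and 7 of 9 in G5, beside 51 and 69 of all 80 ribosomal protein genes. Rps19, the gene most often mutated in patients, had a log2 difference of 1.92 ± 0.34 in G3 and 2.52 ± 0.31 in G5 (limma, adjusted p = 0.0015 and 5.5e-05). The 2 that passed in neither generation were Rps24 (0.49 ± 0.31 in G5) and Rps26. Of 9 ribosomal proteins reported to bind Mdm2, 5 rose in G3 and 8 in G5, all but Rpl23 (0.44 ± 0.24, adjusted p = 0.12). Both shares are close to those of all 80 ribosomal protein genes. These lists share genes with each other and with the roles above.

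Rps27l, the paralog of Rps27, had 205, 229 and 221 FPKM in G3TM, against 138 and 137 FPKM in G3DM, and 330.4, 206 and 224 FPKM in G5TM, against 189.5, 99.7 and 88.5 FPKM in G5DM. TM libraries were the lower in G1 and the higher in G3 and G5, without overlap in each generation. The G5 difference passed, at 1.06 ± 0.27 log2 units (limma, adjusted p = 0.0047), and it was lost under quantile scaling. Those in G1 (above) and G3 (0.67 ± 0.30, adjusted p = 0.1) did not pass. In G5 the p53 targets Cdkn1a (-3.74 ± 0.44) and Mdm2 (-2.73 ± 0.37) were lower in TM (adjusted p = 4.0e-05 and 9.5e-05). Trp53 itself, which encodes p53, was higher by 0.84 ± 0.29 (adjusted p = 0.022).

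**Figure D3:**
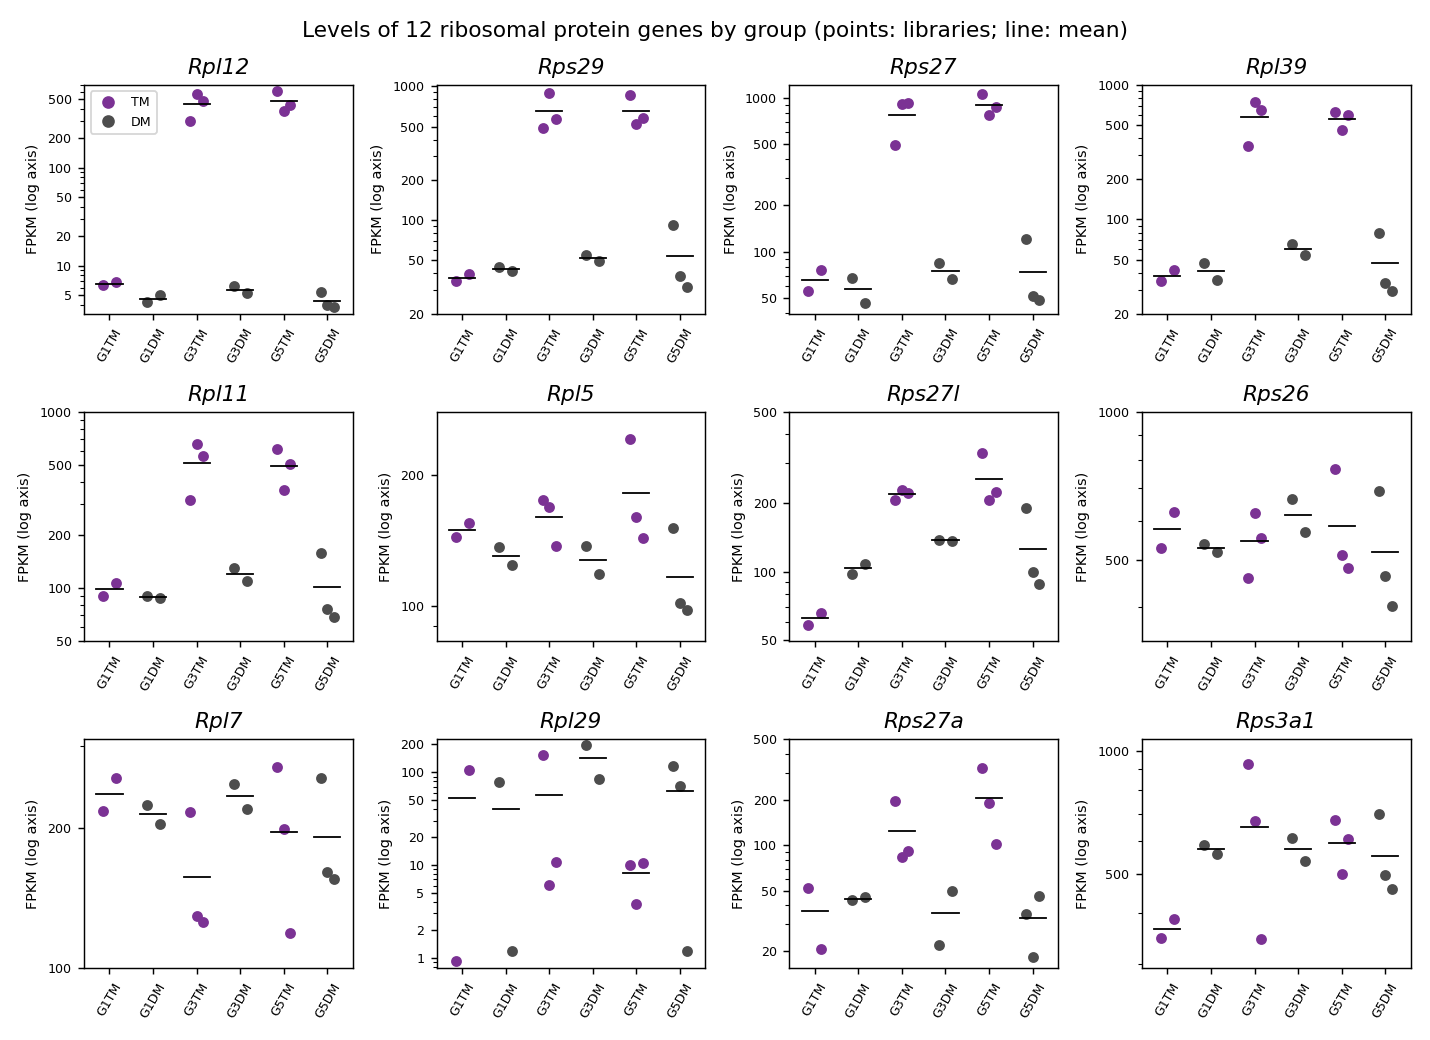
FPKM of 12 ribosomal protein genes in the libraries of each group (points; lines are group means; each panel has its own log axis). Rpl12, Rps29, Rps27, Rpl39 and Rpl11 are high in all 6 libraries of G3TM and G5TM, Rps26 and Rpl7 overlap between TM and DM in G5, and Rpl29, Rps27a and Rps3a1 vary within groups.

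The 11 genes that passed in neither generation were Rpl4, Rpl7, Rpl15, Rpl23, Rpl29, Rpl36al, Rps3a1, Rps12, Rps15a, Rps24 and Rps26. Rpl7, a large subunit protein beside the 5S RNA, had 217, 129.6 and 125 FPKM in G3TM, against 249 and 220.1 FPKM in G3DM, and 270.3, 199 and 119 FPKM in G5TM, against 257, 161 and 156 FPKM in G5DM. The 3 G3TM libraries were below both G3DM libraries, while the G5 libraries overlapped. Its log2 difference was -0.62 ± 0.35 in G3 and 0.00 ± 0.31 in G5 (limma, adjusted p = 0.19 and 1), and it was called lower in both under quantile scaling. Rpl4, another core protein of the large subunit, had a G5 log2 difference of 0.52 ± 0.25. Rpl15 had 244, 573 and 499 FPKM in G3TM, against 237 and 229 FPKM in G3DM, but 288, 169 and 274 FPKM in G5TM, against 325, 147 and 141 FPKM in G5DM, where the libraries overlapped. Its log2 differences were 0.82 ± 0.41 in G3 and 0.33 ± 0.37 in G5 (limma, adjusted p = 0.14 and 0.46).

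A few genes varied widely between libraries of 1 group. Rpl29 had 10.1, 3.77 and 10.5 FPKM in G5TM, against 116, 70.8 and 1.17 FPKM in G5DM, and 153, 6.09 and 10.8 FPKM in G3TM, against 198 and 85.2 FPKM in G3DM. In G1 it had 0.914 and 106 FPKM in TM and 78.4 and 1.18 FPKM in DM. Each library was thus either at 10.8 FPKM or less, or at 70.8 FPKM or more, and 4 of the 6 groups held libraries of both kinds. The log2 difference of Rpl29 was -2.48 ± 2.00 in G3 and -1.63 ± 1.79 in G5 and passed in neither (limma, adjusted p = 0.37 and 0.45), and the table held 3 pseudogenes of it. Rps27a, made as a fusion with ubiquitin, had 323, 189 and 101 FPKM in G5TM, against 34.9, 18.2 and 46.3 FPKM in G5DM, and 196, 83.2 and 91.5 FPKM in G3TM, against 21.9 and 49.7 FPKM in G3DM. In G1 it had 52.3 and 20.7 FPKM in TM and 43.5 and 45.2 FPKM in DM. Despite this spread, TM libraries were all above DM libraries in G3 (1.76 ± 0.56 log2 units, limma, adjusted p = 0.03) and G5 (2.53 ± 0.50 log2 units, limma, adjusted p = 0.0011). Rps3a1 had 348 and 387 FPKM in G1TM, against 589 and 557 FPKM in G1DM, and 927, 674 and 346 FPKM in G3TM, against 609.6 and 537 FPKM in G3DM. The G1 libraries did not overlap, while those of G3 did. Its difference passed in no generation (-0.64 ± 0.38 log2 units in G1, adjusted p = 0.57).

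No ribosomal protein gene passed the test between DM generations. In G3DM against G1DM, 0 of 80 passed in limma and 0 with voom, 1 had an unadjusted p under 0.05 (Rpl39l), and 0.214% of all genes tested were called (0.184% higher, 0.0295% lower). The median log2 difference (G3 minus G1) was 0.39 for the large and 0.44 for the small subunit, beside 0.09 over all genes tested. Both G3DM libraries lay above both G1DM libraries for 62 genes, beside 36.5% of all genes tested, and below them for 2, beside 26.5%. In G5DM against G1DM, 0 of 80 passed in limma and 0 with voom, none had an unadjusted p under 0.05, and 0.059% of all genes tested were called (0.00737% higher, 0.0516% lower). The medians were 0.06 and 0.05, and libraries did not overlap for 2 genes, Rpl39l and Rps10, both higher, beside 6.32% of all genes tested higher and 7.2% lower. The summed level of the 82 genes was 25446, 12262 and 10906 FPKM in the G5DM libraries, against 15562 and 13745 FPKM in G1DM, so the spread within G5DM enclosed both G1DM libraries.

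In TM fibroblasts, 63 of 80 were higher in G5 than in G1 and none was lower, where 49.5% of all genes tested changed, 26.0% being higher and 23.5% lower. These were 38 of 48 large and 25 of 32 small subunit genes, with median log2 differences of 1.57 and 1.83. Libraries did not overlap for 68 genes higher in G5TM, beside 37.4% of all genes tested, and for 0 lower, beside 36.2%. The largest differences were 5.95 ± 0.27 for Rpl12, 4.07 ± 0.39 for Rps29, 3.88 ± 0.33 for Rps21 and 3.84 ± 0.39 for Rpl39. Rps27l rose by 1.98 log2 units (limma, adjusted p = 0.00039). In G5TM against G3TM, 0 of 80 passed in limma and 0 with voom, 1 had an unadjusted p under 0.05 (Rpl15, -0.79 ± 0.37 log2 units), and 0.0295% of all genes tested were called (0.0221% higher, 0.00737% lower). The medians there were 0.11 for the large and 0.10 for the small subunit, and libraries overlapped for every one of the 80, beside 2.78% of all genes tested that did not overlap and were higher and 3.02% that were lower.

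The TM minus DM difference itself was larger in G5 than in G1 for 43 of 80 ribosomal protein genes, by the interaction term of the same limma model, and smaller for none. Among all genes tested the term passed for 19.8%, being positive for 11.5% and negative for 8.33%. The 43 were 23 of 48 large and 20 of 32 small subunit genes. The term was 6.02 ± 0.38 log2 units for Rpl12 (adjusted p = 1.5e-06), 2.22 ± 0.53 for Rpl11 (0.017) and 1.77 ± 0.42 for Rps27l (0.016). For Rpl5 it was 0.43 ± 0.37 and did not pass (adjusted p = 0.4). The number depended on single libraries: it was 19 without G1DM replicate 1, 13 without G1TM replicate 1, 22 without G1TM replicate 2, 24 without G5DM replicate 2 and 28 without G5TM replicate 1. The term of Rpl11 was lost without G1DM replicate 1 or G1TM replicate 1 and with no filter (adjusted p = 0.052), and that of Rps27l without G1TM replicate 1.

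The ratio of summed large to small subunit levels lay between 1.35 and 1.53 in all 15 libraries. The summed FPKM of large subunit genes was 1.42 and 1.42 times that of small subunit genes in the libraries of G1TM and 1.40 and 1.35 times in G1DM. The ratio was 1.48, 1.5 and 1.52 in G3TM, against 1.41 and 1.40 in G3DM, and 1.53, 1.52 and 1.47 in G5TM, against 1.52, 1.46 and 1.38 in G5DM. The 3 G3TM libraries were above both G3DM libraries, while G5TM and G5DM overlapped. In recovered reads the ratio stayed between 1.30 and 1.38 in all 15 libraries. The median log2 difference of TM minus DM was lower for the large than for the small subunit by 0.19 in G3 and 0.30 in G5, and higher by 0.05 in G1. In G3 the summed ratio thus moved towards the large subunit and the medians towards the small one. The sums weigh the highest genes most, such as Rplp1 with 3537 to 6443 FPKM in the 6 libraries of G3TM and G5TM. Within groups, the difference between the subunits' median log2 levels varied from library to library with a pooled SD of 0.12, and no test was made, since the genes were chosen with results known. Under quantile scaling the G5 value was -0.13. With GC and gene length trends removed, the G3 medians came close, at 0.96 for the large and 1.01 for the small subunit.

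**Figure D4:**
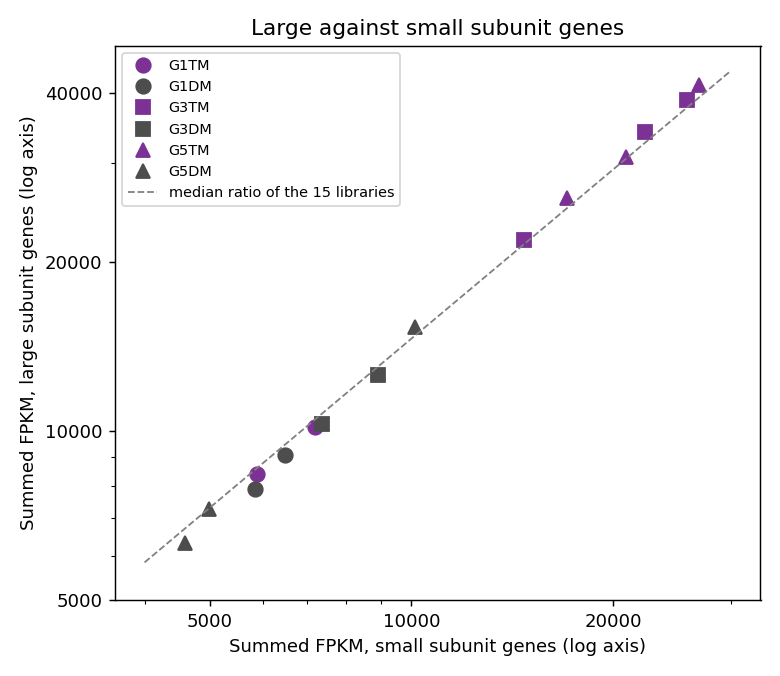
Summed FPKM of large subunit genes against that of small subunit genes in each of the 15 libraries (both axes log; colour: genotype; shape: generation; dashed line: median ratio). The libraries lie along one line, with the 6 of G3TM and G5TM at the upper end and G5DM replicate 1 highest of the 9.

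The third of ribosomal protein genes with the longest coding lengths had the smaller differences. In G5 the median log2 difference was 1.96 for the 27 genes with coding lengths of 138 to 399 bases, 1.99 for the 26 of 405 to 576 bases and 1.48 for the 27 of 582 to 1257 bases, with 23 of each called higher. In G3 the medians were 1.75, 1.63 and 1.05, with 20, 19 and 12 called, and in G1 they were 0.02, 0.11 and 0.15. Over the 80 genes, Spearman's rho between coding length and the G5 difference was -0.37, beside -0.35 over 11633 protein-coding genes tested. With the GC content of coding transcripts rho was 0.20, beside 0.56 over those genes. For coding length it was -0.44 in the large and -0.22 in the small subunit. With the gene length listed in the deposited data, rho was only -0.17 over the 80 genes, beside -0.47 over 11653 protein-coding genes tested. The points share the same libraries, and genes are not independent replicates. The 6 libraries were not alike in this respect. Relative to each gene's mean, the third of genes with the highest GC content exceeded the third with the lowest by 0.87 log2 units in G3TM replicate 2, 0.60 in G3TM replicate 3 and 0.49 in G5TM replicate 3. The same measure was -0.06 in G3TM replicate 1, 0.12 in G5TM replicate 1 and 0.02 in G5TM replicate 2, and -0.36 to -0.05 in the 9. With GC and gene length trends removed, a setting added after the data were seen, 53 genes were higher in G3 and 63 in G5. The share of all genes called under that setting was not set beside these counts. Relative to the median of all genes there, the large and small subunit medians were 0.97 and 1.01 in G3 and 1.19 and 1.45 in G5. The part of length and base composition in the differences was not tested further.

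**Figure D5:**
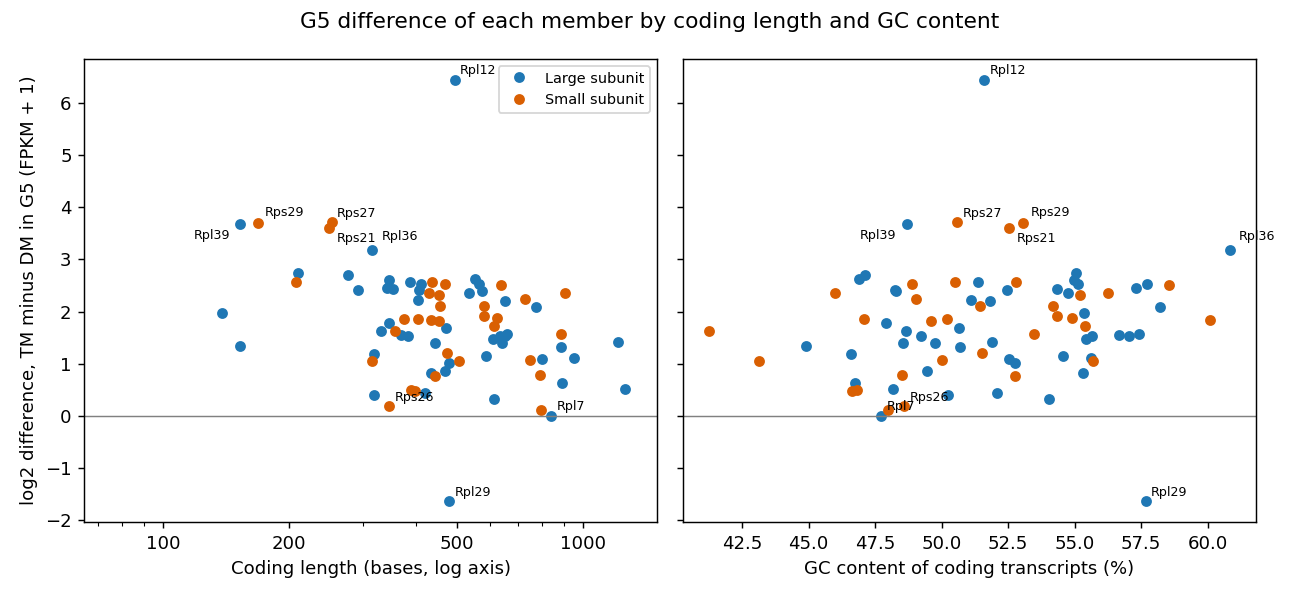
The G5 log2 difference (TM minus DM) of the 80 ribosomal protein genes by coding length (left, log axis) and by GC content of coding transcripts (right). Points stand for genes, coloured by subunit; the highest are Rpl12 and short genes such as Rps27, Rps29, Rpl39 and Rps21, and Rpl29 lies lowest.

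Reads of ribosomal protein genes can be split between near-identical copies. The table held 288 pseudogenes described as copies of these genes, at least 1 for 58 of the 82 and up to 25 for 1 gene (Rpl31). In GENCODE vM21, exons of 38 overlapped another gene on either strand. The G5 median log2 difference was 1.83 for the 22 tested genes with no such copy, 18 of them higher, and 1.70 for the 58 with one, 51 of them higher. It was 2.03 for the 42 without exon overlap, 35 of them higher, and 1.56 for the 38 with it, 34 of them higher. Levels of genes with copies or overlaps are uncertain to that extent.

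Some ribosomal proteins go by other names. Fau rose in G3 and G5, with log2 differences of 2.02 ± 0.37 and 2.57 ± 0.33 (limma, adjusted p = 0.0018 and 8.1e-05). Rack1 rose in G5, by 1.23 ± 0.37 (limma, adjusted p = 0.013). Of paralogs that sit in the ribosome in place of another protein, Rpl39l and Rps27l passed in G5 and not in G3, and Rpl36al passed in neither generation (0.39 ± 0.18 in G5). Rps4l, listed as a transcribed pseudogene and so not among the 82, rose in G3 and G5 (1.74 ± 0.25 in G5). Of the paralogs left out, Rpl22l1 rose in both (2.29 ± 0.26 in G5) and Rpl7l1 in G5 (0.87 ± 0.21). Mitochondrial ribosomal proteins, which serve the separate ribosome of that organelle, rose in 52 of 77 cases in G3 and 66 of 77 in G5, beside 18.0% and 30.3% of all genes tested, with median log2 differences of 0.91 and 1.16. The one that fell, in G5, was Mrpl1 (-0.62 ± 0.24).

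The lists of genes that build ribosomes or control their number are to be read beside all genes tested, of which 18.0% were higher and 13.9% lower in G3, and 30.3% higher and 28.4% lower in G5. Of 28 genes of ribosomal RNA processing and assembly, 17 rose in G3 and 16 in G5 and none fell, with medians of 1.26 and 1.23. The 57.1% called in G5 were all higher, beside 30.3% higher among all genes tested. Counting both directions, that share is near the 58.7% of all genes tested. The largest were Rrp1 (5.38 ± 0.19 in G5) and Rrp9 (4.31 ± 0.40), and Rrp1 had no library between 1.67 and 73.5 FPKM. Of 6 dedicated chaperones tested, which hold single ribosomal proteins before assembly, 5 rose in G3 and 4 in G5, among them Grwd1 (2.38 ± 0.50 in G5) and Tsr2 (0.85 ± 0.23). The chaperones called in G5 (66.7%) were all higher, beside 30.3% higher among all genes tested. Counting both directions, that share is also near that of all genes tested. RNA polymerase I, which makes ribosomal RNA, and its factors rose in 4 of 11 cases in each generation, in G5 a share near that of all genes tested, and Taf1d fell in G5 (-1.03 ± 0.27). Of 16 translation factors and other products of TOP mRNAs, 2 rose and 1 fell in G3, and 6 rose and 2 fell in G5, with medians of 0.08 and 0.35. Counting both directions, these shares (18.8% and 50%) are below those of all genes tested (32.0% and 58.7%). Counting only higher genes, 6 of 16 in G5 is slightly above the 30.3% of all genes tested. Eef1b2 rose by 1.35 and Eef1g by 1.31 log2 units in G5, while Eif4a2 fell (-1.53 ± 0.35) and Pabpc1, the poly(A)-binding protein, fell in both generations (-0.85 ± 0.22 in G3, -0.62 ± 0.19 in G5). Of 11 growth control genes, 2 rose and 1 fell in G3, and 4 rose and 2 fell in G5. Counting both directions (27.3% and 54.5% changed), these are again no more than among all genes tested. Myc, a driver of ribosome production, rose in both (1.34 ± 0.35 in G3, 1.02 ± 0.32 in G5) and Eif4ebp1, an inhibitor of translation under mTOR, rose by 1.89 log2 units in G5. Tsc1, which restrains mTOR, fell in both. The S6 kinase gene Rps6kb1 fell in G5 (-1.01 ± 0.28), while the S6 kinase gene Rps6kb2 rose (0.50 ± 0.18). Maf1 also rose in G5 (1.32 ± 0.35). In G1 no gene of these lists passed.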

How the data were processed

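The authors deposited 1 table of FPKM per gene and library. DESeq2 1.20.0, featureCounts 1.5.0-p3, HISAT2 2.0.5, fastp and CASAVA 1.8 appear, with no role, in the submitters' processing notes. A strand setting and a genome build are not given in the sources used here. Gene coordinates in the deposited table were the same as in GENCODE vM21 (GRCm38) for 98.3% of shared identifiers and for 80 of the 82 ribosomal protein genes. All exon overlaps, coding lengths and GC contents were taken from GENCODE vM21, and overlaps counted genes on either strand. Whether the authors used that annotation is not given. FPKM times listed length was a whole multiple of 1 step per library, within 0.05 of a whole number, for 100% of values, which gave the recovered reads.

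Genes with at least 1 FPKM in at least 2 of 15 libraries were tested. On log2(FPKM + 1), limma 3.58.1 under R 4.3.3 estimated the means of the 6 groups with a mean-variance trend, and two-sided p-values were adjusted by Benjamini-Hochberg over all 13562 genes. Fold changes on this scale understate those of low genes. Tables and figures were made with Python 3.11.15, and the fit was tested on simulated data.

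The ribosomal protein genes and all lists were chosen with earlier results of these data known, so no list has a p of its own. Library values were given by rule for Rpl12, Rpl5, Rpl11, Rps27, Rps27l, the median gene of each subunit and the 4 called genes with the largest rise in each comparison. Other genes with library values, such as Rps26, Rpl7, Rpl15, Rpl29, Rps27a, Rps3a1, Rpl24 and Rps10, were chosen after their values were seen, as were some genes of the related lists, those that fell included. Alternatives were no filter, a pseudocount of 0.1, TPM, quantile scaling, length trends, voom on recovered reads, only the groups compared, a replicate block and leaving out each library. Removal of GC and length trends, and fits to the 9 libraries alone, were chosen after seeing the data. Whether replicate numbers pair libraries is not settled. Deviations of same-numbered libraries correlated at -0.54 to 0.38 over 33 pairs, and those of differently numbered ones at -0.49 to 0.54 over 60 pairs. In groups of 2 libraries the deviations mirror each other, so this check cannot exclude pairing. One related gene is not reported here.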

Additional observations from a re-analysis of the deposited data

Results flagged for a closer look

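The TM minus DM difference in G5 was set against that in G1 by an interaction term in limma. It differed for 43 of the 80 ribosomal protein genes tested, all in the positive direction. Among all genes tested the term passed for 19.8%, 11.5% being positive and 8.33% negative. With 1 library left out, the number of ribosomal protein genes ran from 13 to 64. Rpl12 had the largest term at 6.02 log2 units, followed by Rps29 at 3.92, Rpl39 at 3.78 and Rps21 at 3.77. These terms set the libraries of G5TM, which stand apart from the 9 others, against G5DM, G1TM and G1DM, so genotype by generation and that division cannot be told apart. No group held enough libraries for a check of single outlying libraries, which needs at least 4.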

How the results depend on the processing

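The counts of 0 in G1, across DM generations and from G3 to G5 in TM stood under every setting run. The number higher was 38 to 55 in G3, 60 to 70 in G5 and 54 to 63 for G5 against G1 in TM over the settings that kept all libraries. Leaving out 1 library gave 23 to 59, 62 to 73 and 46 to 65. Shares of all genes tested were given for the main fit only, so these ranges do not show how far the counts exceeded them. For the interaction it was 21 with no filter, and 13 to 64 with 1 library left out. The replicate block gave 47 in G3, 70 in G5, 61 for G5 against G1 in TM and 35 for the interaction. Since the numbers are not known to pair libraries, this is only another fit. The large minus small subunit median in G5 (-0.30) was -0.13 under quantile scaling and -0.34 to -0.28 with 1 library left out. In G3 (-0.19) it was -0.26 to -0.11 with 1 library left out and closer to 0 with GC and length trends removed. In G1 (0.050) it was -0.00011 without G1DM replicate 1 and at most 0.054 with 1 library left out. Signs turned for Rpl5 in G3 under TPM (-0.070) and quantile scaling (-0.097), and in G5 under quantile scaling (-0.066). They turned in G5 for Rpl7 under TPM (-0.58), quantile scaling (-0.81), length trends removed (-0.38) and voom (-0.095), with -0.27 to 0.32 when 1 library was left out. For Rps26 in G5 they turned under TPM (-0.40), quantile scaling (-0.72), length trends (-0.39) and GC and length trends (-0.055), with -0.023 to 0.41 when 1 library was left out. The cause of these changes was not tested. Over named genes and settings, 1005 values kept their direction and side of the threshold, 16 turned, 12 lost a call and 3 gained one. Each library's 17448588 reads or more put most ribosomal protein genes far above the smallest value. Low levels limit mainly Rpl24, Rps10, Rpl36al, the paralogs near 0 and, outside G3TM and G5TM, Rpl12.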
